A study of Homo sapiens with 9 samples.

Results

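The replication-dependent histone genes are the families named HIST1H, HIST2H, HIST3H and HIST4H, which lie in clusters and encode the bulk histones H1, H2A, H2B, H3 and H4. Members were the genes of the transcript count table whose names begin with one of these 4 stems, each represented by the transcript with the highest total count, and there were 66 of them among 20878 genes. They comprised 4 H1, 16 H2A, 19 H2B, 14 H3 and 13 H4 genes, of which 49 lie in HIST1, 13 in HIST2, 3 in HIST3 and 1 in HIST4. A further 7 names, HIST1H2AA, HIST1H2BA, HIST1H2APS1, HIST1H1A, HIST1H1D, HIST1H4F and HIST1H4G, occurred in the deposited RPKM table only, with a value of 0. SW480 is an established cell line from a human colorectal carcinoma in which the tumour suppressor APC is defective. APC holds together the proteins that target beta-catenin for degradation. The libraries came from the parental cells (SW480), from R38.7, which carries the empty pEF vector (CONTROL), and from D2.15, which carries pEF with myc-tagged APC (APC). Each derivative is 1 line, so what is particular to that line and what comes with its plasmid cannot be told apart. All lines were grown in RPMI with thioglycerol, hydrocortisone, insulin, foetal calf serum and antibiotics. G418 at 1.5 mg/ml was given to both derived lines and not to the parent, and plates were seeded with 335000 cells for SW480 and CONTROL and 200000 for APC. Polyadenylated RNA was prepared from 3 plates per line 72 h later. The 9 libraries were therefore parallel plates of 3 lines, and the p-values below measure the spread between plates only.

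Cells make the core histones H2A, H2B, H3 and H4 and the linker histone H1 mainly in S phase, when new DNA has to be wrapped into nucleosomes, and repress the genes again when replication ends. The genes have no introns. Their mRNAs are the exception among animal mRNAs in ending, as a rule, not in a poly(A) tail but in a conserved stem-loop, which is bound by the stem-loop binding protein SLBP and cut just downstream with the help of the U7 small nuclear ribonucleoprotein. Some members also give longer, polyadenylated transcripts from a site further downstream, above all in cells that differentiate or leave the cycle. A library from polyadenylated RNA therefore samples the tailed part of these messages, and the levels below are levels of what that selection kept.

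The stem-loop is shown first, since it is the feature that sets these messages apart. It was searched as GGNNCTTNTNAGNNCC on the sense strand of GENCODE release 29 transcripts (build GRCh38), matched to the count table by accession for all 66 members. The sequences below give 5 bases on each side in lower case and the motif in capitals.

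HIST2H2AA3, H2A: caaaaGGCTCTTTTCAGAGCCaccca
HIST3H2A, H2A: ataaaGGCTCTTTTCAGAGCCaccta
HIST2H2BE, H2B: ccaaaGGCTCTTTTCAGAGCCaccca
HIST1H2BD, H2B, shorter transcript: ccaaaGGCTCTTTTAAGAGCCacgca
HIST1H3H, H3: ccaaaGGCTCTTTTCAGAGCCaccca
HIST2H4A, H4: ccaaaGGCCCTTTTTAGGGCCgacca

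The motif was found in 32 members, 7 of H2A, 11 of H2B, 6 of H3, 8 of H4 and 0 of H1, against 388 of 206694 transcripts in all (0.188%). Several of the annotated models stop at the end of the coding sequence, so a missing match says only that these letters are not in that model. The 32 members carried 6 distinct versions of the 16 bases. In 21 of the 32 the annotated transcript ran on for more than 100 bases past the motif, and in 15 its last 40 bases held AATAAA or else its common variant ATTAAA, the letters of the common polyadenylation signal. HIST2H2BE, an abundant member, is shown as an example: its motif begins at base 450 of a transcript of 2194 bases, and the signal, in capitals, begins at base 2171.

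HIST2H2BE, polyadenylation signal: tattgttattAATAAAgttaccaatt

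The promoters are shown for the member of each class with the highest mean level, and for HIST3H2A, which was added after its values were seen because it was the member that rose in the APC line. Each runs from 250 bases before to 50 bases after the start in the RefSeq table of GRCh38.p14, and capitals mark, on either strand, the motif CCAAT, the TATA box searched as TATAAA, the octamer searched as ATTTGCAT and the H1 box searched as AAACACA.

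HIST1H1C, chr6:26056421-26056720, minus strand: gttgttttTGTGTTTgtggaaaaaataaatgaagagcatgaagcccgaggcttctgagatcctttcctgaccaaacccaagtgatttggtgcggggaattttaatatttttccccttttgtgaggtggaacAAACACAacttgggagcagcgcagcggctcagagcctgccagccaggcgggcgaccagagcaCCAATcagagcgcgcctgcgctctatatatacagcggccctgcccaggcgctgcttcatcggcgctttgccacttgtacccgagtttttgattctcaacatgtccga
HIST2H2AA3, chr1:149842701-149843000, minus strand: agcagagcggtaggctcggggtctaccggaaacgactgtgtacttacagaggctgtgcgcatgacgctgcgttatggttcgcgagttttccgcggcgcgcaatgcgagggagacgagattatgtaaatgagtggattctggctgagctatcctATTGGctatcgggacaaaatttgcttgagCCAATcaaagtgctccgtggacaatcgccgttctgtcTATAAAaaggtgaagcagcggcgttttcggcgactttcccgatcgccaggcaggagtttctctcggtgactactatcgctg
HIST1H2BK, chr6:27146809-27147108, minus strand: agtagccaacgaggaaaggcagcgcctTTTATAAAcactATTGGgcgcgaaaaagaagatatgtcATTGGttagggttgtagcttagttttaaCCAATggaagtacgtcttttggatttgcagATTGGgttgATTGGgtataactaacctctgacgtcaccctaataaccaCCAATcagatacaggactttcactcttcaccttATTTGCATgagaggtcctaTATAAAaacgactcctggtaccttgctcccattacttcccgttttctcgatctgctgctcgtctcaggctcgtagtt
HIST1H3D, chr6:26199244-26199543, minus strand: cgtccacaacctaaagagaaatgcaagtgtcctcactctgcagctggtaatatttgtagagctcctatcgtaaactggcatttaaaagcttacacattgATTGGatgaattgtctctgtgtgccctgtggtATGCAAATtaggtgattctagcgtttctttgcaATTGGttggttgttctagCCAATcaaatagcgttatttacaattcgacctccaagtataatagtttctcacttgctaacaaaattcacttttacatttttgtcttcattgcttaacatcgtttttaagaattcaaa
HIST2H4A, chr1:149832407-149832706, plus strand: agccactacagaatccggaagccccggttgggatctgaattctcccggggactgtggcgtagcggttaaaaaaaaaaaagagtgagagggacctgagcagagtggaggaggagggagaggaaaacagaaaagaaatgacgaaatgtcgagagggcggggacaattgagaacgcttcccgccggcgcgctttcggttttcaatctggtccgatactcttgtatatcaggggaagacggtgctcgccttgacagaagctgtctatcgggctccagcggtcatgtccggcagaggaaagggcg
HIST3H2A, chr1:228457824-228458123, minus strand: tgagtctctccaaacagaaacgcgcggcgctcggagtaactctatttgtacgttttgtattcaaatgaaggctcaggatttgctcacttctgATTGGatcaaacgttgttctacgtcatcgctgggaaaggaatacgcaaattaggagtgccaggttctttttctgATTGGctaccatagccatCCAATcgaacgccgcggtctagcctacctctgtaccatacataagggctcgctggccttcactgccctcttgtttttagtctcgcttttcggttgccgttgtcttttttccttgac

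Of the 66 members, 59 had a promoter in that table. CCAAT occurred in 50 of these 59, in each H1, H2A, H2B and H3 promoter matched but in 2 of 11 of H4, against 35.7% of 27305 promoters of all genes. TATAAA occurred in 38 of 59 against 12.0%. The octamer, which is read by Oct-1, occurred in 24 of 59 against 1.80%, in 13 of 17 H2B, 10 of 15 H2A and 1 of 12 H3 promoters. AAACACA occurred in 7 of 59 against 5.76%, and in all 4 H1 promoters. In the promoter of HIST1H2BK matches of TATAAA on opposite strands overlap. A match is a description of the letters and not a measured binding site.

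Total counts over genes were 16456738 to 19358025 per library, and 3 counts were worth 0.155 to 0.182 CPM on the library total alone. Unless stated otherwise, CPM below is the count scaled to a common library size after TMM normalization. The gene carried by the construct, APC, was measured at 46.6, 49.6 and 51.5 CPM on the 3 SW480 plates, 48.1, 46.3 and 49.4 on the CONTROL plates and 149.6, 146 and 139.7 on the APC plates. The 3 APC plates stood far above the other 6, by 2.94-fold over SW480 and 3.02-fold over CONTROL (edgeR adjusted p = 4.31e-25 and 2.59e-25). All 7 colon epithelial markers examined were detected in each line, with a summed level of 5400.4 to 6043 CPM for SW480, 6023 to 6320.3 CPM for CONTROL and 6206 to 6376 CPM for APC. CDH1, the E-cadherin gene, stood at 7.23 ± 0.897, 8.73 ± 1.59 and 133 ± 4.49 CPM in that order. The 7 markers did not all rise with it. In APC, 3 of the 7 were lower and 4 higher than in SW480 (edgeR adjusted p under 0.05). Against CONTROL, 2 were lower, 4 higher and 1 not called. Markers of leukocytes summed to at most 8.27 CPM, of fibroblasts to at most 18.3 CPM and of endothelium to at most 1.52 CPM in any library, and LUM, PECAM1 and CDH5 had no count in SW480.

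Histone RNA in these polyadenylated libraries was far lower in the APC line than in both other lines. Summed over the members, with loci of identical counts taken once, it stood at 781, 702 and 746 CPM on the 3 SW480 plates, 623, 631 and 638 on the CONTROL plates and 88.3, 81.3 and 87.2 on the APC plates. The 3 APC libraries lay far below the other 6, and the means differed 8.68-fold from SW480 and 7.37-fold from CONTROL. A pair of genes, the H2B gene HIST1H2BK and the H1 gene HIST1H1C, carried most of this sum in SW480 and CONTROL. The other members held 25.6 ± 0.919% of it in SW480, 25.8 ± 0.717% in CONTROL and 51.0 ± 1.93% in APC. Without HIST1H2BK the sum was 423 ± 32.0 (SW480), 322 ± 5.77 (CONTROL) and 54.5 ± 2.43 CPM (APC), and without both it was 189.9 ± 10.1 (SW480), 163 ± 6.10 (CONTROL) and 43.7 ± 2.94 CPM (APC), a ratio of 4.35 to SW480 and 3.73 to CONTROL. These sums are values with no test. In bulk polyadenylated RNA, fewer cells in S phase, less histone RNA per cell and a smaller tailed part of that RNA cannot be told apart.

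Of the 66 members, 36 had enough counts to be tested, and 33 of the 36 were lower and 2 higher in APC than in SW480 (edgeR quasi-likelihood F-test, p under 0.05 after Benjamini-Hochberg adjustment). Over all 14255 genes tested, 72.5% were called, 36.9% lower and 35.6% higher. Against CONTROL 29 were lower and 1 was higher, beside 35.4% and 34.8% of all genes, of which 70.2% were called. Both comparisons use the same APC libraries. The 29 were lower in both, as were 28% of all genes, and 1 was higher in both, as were 27.8%. The median log2 fold change of the members tested was −2.49 against SW480 and −2.11 against CONTROL, and that of all genes −0.01 in each. Copies with identical counts enter these counts and medians, and those by class and cluster below, more than once. Taken once, 30 of 33 were lower and 2 higher against SW480, and 26 lower and 1 higher against CONTROL. The medians were then −2.42 and −1.96. Of the members called lower, 31 of 33 and 27 of 29 were over 2-fold lower. In 31 members every APC library lay below every SW480 library, and in 27 below every CONTROL library, as in 37.2% and 37.1% of all genes. In 2 members the APC libraries lay above those of SW480 and in 2 above those of CONTROL, as in 35.9% and 36.3% of all genes. A gene low in APC could pass the count filter through the other lines alone, so these counts and medians describe the members tested and support nothing more. Only 12 of the 36 reached the filter level of 0.547 CPM in all 3 APC libraries, of which 9 were lower, 2 higher and 1 not called against SW480. The p-values of members below that level in APC libraries carry the same limit and support nothing more.

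**Figure D1:**
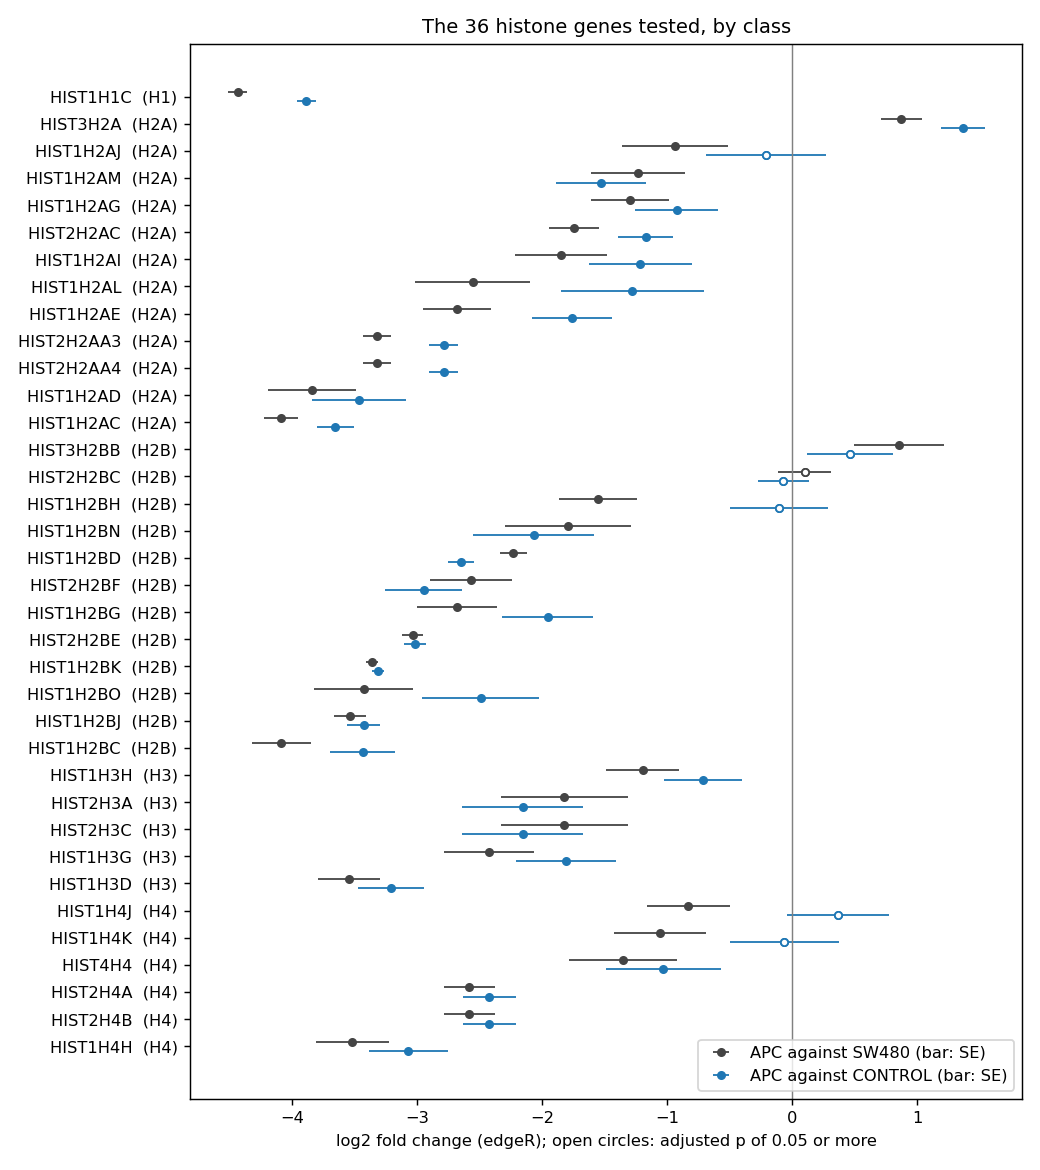
Log2 fold change of each of the 36 members tested, sorted by class, for APC against SW480 (dark) and APC against CONTROL (blue). Points are edgeR estimates, bars are 1 SE, and open circles mark an adjusted p of 0.05 or more. Values run from −4.43 for HIST1H1C to 1.37 for HIST3H2A.

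Both APC comparisons called the same direction for the 10 members that reached a mean of 5 CPM in some line, 9 lower and HIST3H2A higher. The fall of the 9 was 4.69-fold to 21.6-fold against SW480 and 6.27-fold to 14.8-fold against CONTROL. They are described by class.

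**Figure D2:**
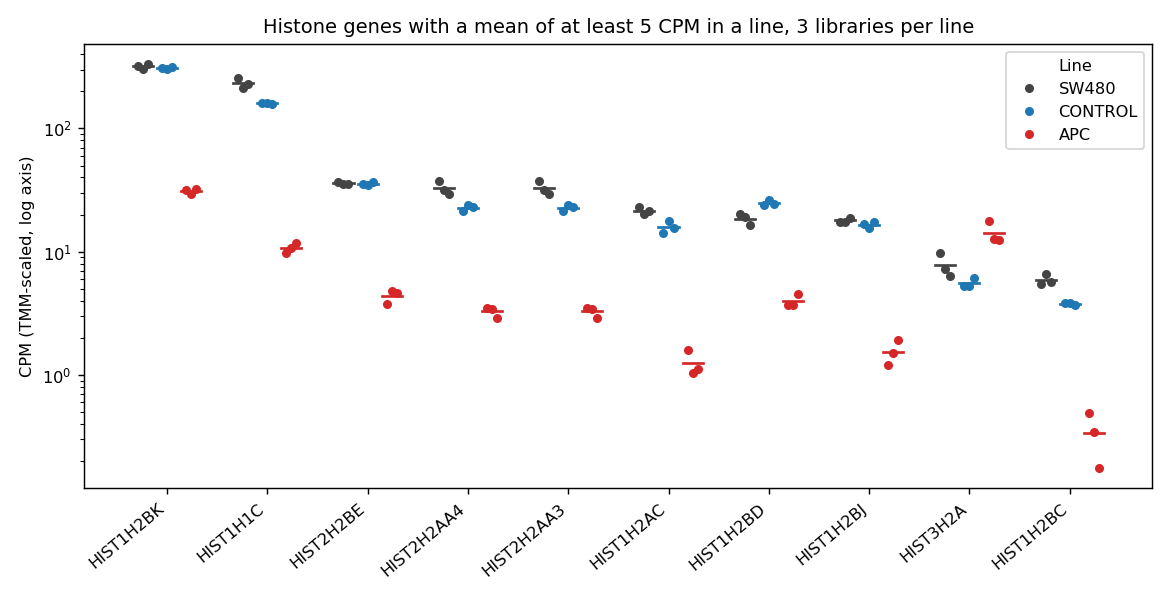
CPM (log axis) of the 10 members with a mean of at least 5 CPM in a line, 1 point per library, with the mean of each line as a bar. HIST2H2AA3 and HIST2H2AA4 have identical counts. In 9 of the 10 the APC points (red) lie below the 6 others, and in HIST3H2A they lie above them.

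HIST1H1C encodes the linker histone H1.2, which binds the DNA entering and leaving the nucleosome, and it fell the most of these 10 in both comparisons. It was measured at 257, 212 and 231 CPM on the 3 SW480 plates, 159.7, 159.7 and 158 on the CONTROL plates and 9.79, 10.8 and 11.9 on the APC plates. The 3 lines did not overlap, with CONTROL between the others. It was 21.6-fold lower in APC than in SW480 (log2 fold change −4.43 ± 0.08 SE, edgeR adjusted p = 2.09e-19) and 14.8-fold lower than in CONTROL (−3.88 ± 0.08, edgeR adjusted p = 2.36e-18). The other H1 members were hardly sampled: HIST1H1E had 3 to 11 counts per library, HIST1H1B 1 to 9, and the testis gene HIST1H1T had 0 in each. The H1 class therefore rests on 1 gene, and its share of summed member CPM was 31.4 ± 1.43% in SW480, 25.4 ± 0.425% in CONTROL and 13.1 ± 1.42% in APC (mean ± SD, n = 3).

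The H2A class summed to 76.9 ± 8.60 (SW480), 54.4 ± 3.61 (CONTROL) and 22.6 ± 3.45 CPM (APC). Of its 12 members tested, 11 fell and 1 rose against SW480, and 10 fell and 1 rose against CONTROL. HIST2H2AA3 and HIST2H2AA4 are copies of one gene with identical counts, so each value stands for both. They were measured at 37.7, 31.4 and 29.4 CPM on the 3 SW480 plates, 21.3, 24.0 and 23.0 on the CONTROL plates and 3.52, 3.41 and 2.92 on the APC plates. All APC libraries lay below the others, and the fall was 9.96-fold against SW480 (−3.32 ± 0.11, edgeR adjusted p = 2.06e-21) and 6.90-fold against CONTROL (−2.79 ± 0.12, edgeR adjusted p = 8.14e-19). HIST1H2AC was measured at 22.9, 20.3 and 21.2 CPM on the 3 SW480 plates, 14.3, 17.8 and 15.7 on the CONTROL plates and 1.59, 1.04 and 1.11 on the APC plates. Its groups did not overlap either, and it fell 17.0-fold (−4.09 ± 0.14, edgeR adjusted p = 1.23e-23) and 12.6-fold (−3.65 ± 0.15, edgeR adjusted p = 1.94e-21). HIST2H2AC, the most abundant H2A member under 5 CPM in each line, had means of 3.96 ± 0.758 (SW480), 2.65 ± 0.252 (CONTROL) and 1.18 ± 0.0838 CPM (APC) and changed by −1.74 ± 0.20 and −1.17 ± 0.22.

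HIST3H2A, an H2A gene of the small HIST3 cluster, was the exception of this class. It was measured at 9.75, 7.29 and 6.39 CPM on the 3 SW480 plates, 5.26, 5.22 and 6.13 on the CONTROL plates and 17.6, 12.8 and 12.4 on the APC plates. Every APC library lay above every other library, and replicate 1 was the highest of both SW480 and APC, at 9.75 and 17.6 CPM. It was 1.84-fold higher in APC than in SW480 (log2 fold change 0.88 ± 0.16 SE, edgeR adjusted p = 3.25e-04) and exceeded CONTROL 2.58-fold (1.37 ± 0.17, edgeR adjusted p = 1.27e-05). Its counts summed to 436, 301 and 755 over the libraries of SW480, CONTROL and APC. Over 18 settings its log2 fold change was 0.70 to 1.07 against SW480 and 1.19 to 1.47 against CONTROL, called in each, but it did not pass a test against a minimum fold of 2. Its share of summed member CPM went from 1.05 ± 0.196% in SW480 and 0.877 ± 0.0724% in CONTROL to 16.7 ± 2.97% in APC. Of the 50-base stretches of its annotated transcript, 0.591% also occur in another gene. Among the other 9 members with at least 5 CPM in a line this share was 100% for HIST2H2AA3, 97.1% for HIST2H2AA4, 74.1% for HIST1H2BK and 13.0% or less for the rest, so counts of the first 3 are uncertain. The GENCODE model of HIST1H2BK has 381 bases, and the transcript that was counted 839.

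The H2B class was the largest by summed CPM, at 409.7 ± 12.4 (SW480), 399 ± 5.98 (CONTROL) and 46.2 ± 2.28 CPM (APC). Of its 12 members tested, 10 fell, 1 rose and 1 was not called against SW480, and against CONTROL 9 fell and 3 were not called. HIST1H2BK alone was measured at 322, 306 and 332 CPM on the 3 SW480 plates, 307, 305 and 314 on the CONTROL plates and 31.6, 29.4 and 32.3 on the APC plates. The APC libraries lay far below the others, which overlapped each other. It fell 10.3-fold against SW480 (log2 fold change −3.36 ± 0.05 SE, edgeR adjusted p = 8.00e-35) and 9.91-fold against CONTROL (−3.31 ± 0.05, edgeR adjusted p = 1.66e-34). HIST2H2BE, whose stem-loop and downstream signal are printed above, was measured at 36.7, 35.6 and 35.3 CPM on the 3 SW480 plates, 35.2, 34.6 and 36.5 on the CONTROL plates and 3.74, 4.80 and 4.62 on the APC plates. SW480 and CONTROL overlapped and APC lay below both, with changes of −3.03 ± 0.09 and −3.02 ± 0.09 (edgeR adjusted p = 7.54e-26 and 1.05e-25). HIST1H2BJ was measured at 17.6, 17.5 and 18.9 CPM on the 3 SW480 plates, 16.9, 15.5 and 17.4 on the CONTROL plates and 1.21, 1.50 and 1.93 on the APC plates. It changed by −3.54 ± 0.13 and −3.43 ± 0.13 (edgeR adjusted p = 1.16e-22 and 5.11e-22).

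HIST1H2BD differed from the members above in that CONTROL, not SW480, held its highest level. It was measured at 20.2, 19.0 and 16.5 CPM on the 3 SW480 plates, 23.8, 26.2 and 24.5 on the CONTROL plates and 3.68, 3.70 and 4.5 on the APC plates. The lines did not overlap, and the change was −2.23 ± 0.11 against SW480 and −2.65 ± 0.10 against CONTROL (edgeR adjusted p = 4.15e-19 and 9.22e-22). Its 813-base transcript, whose GENCODE model ends with a polyadenylation signal and lacks the stem-loop, and its 487-base transcript, which carries the stem-loop printed above, were counted separately. On CPM scaled by library total alone, the longer one stood at 18.9, 24.7 and 3.91 CPM in SW480, CONTROL and APC, and the shorter one at 10.6, 13.2 and 2.18 CPM. The ratio of SW480 to APC was 4.83 for the longer and 4.87 for the shorter transcript, and that of CONTROL to APC 6.32 and 6.05. The transcripts share sequence, and how reads of the shared part were counted is not given in the sources used here, so these ratios may not be independent. HIST1H2BC was measured at 5.49, 6.64 and 5.64 CPM on the 3 SW480 plates, 3.81, 3.81 and 3.69 on the CONTROL plates and 0.495, 0.347 and 0.175 on the APC plates. Its lines did not overlap, and it fell 17.0-fold and 10.8-fold, from counts of 18 in all 3 APC libraries together. These 3 libraries lay under the filter level of 0.547 CPM, so it was tested only because the other lines are high and no test is given.

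A pair of H2B members did not fall. HIST2H2BC, a transcribed pseudogene per RefSeq, was measured at 1.62, 1.93 and 1.66 CPM on the 3 SW480 plates, 1.99, 1.60 and 2.23 on the CONTROL plates and 2.03, 1.62 and 1.93 on the APC plates, and the lines overlapped (edgeR adjusted p = 0.675 against SW480 and 0.776 against CONTROL). Its SE of 0.21 around a log2 fold change of 0.10 gives the precision. Of the 50-base stretches of its transcript, 79.7% also occur in other genes, so its counts are uncertain. HIST3H2BB, the neighbour of HIST3H2A, was measured at 0.538, 0.482 and 0.322 CPM on the 3 SW480 plates, 0.591, 0.553 and 0.623 on the CONTROL plates and 1.15, 0.636 and 0.643 on the APC plates. Its APC libraries lay above the others by a small margin, and it was called higher against SW480 (0.86 ± 0.36, edgeR adjusted p = 0.0336) but not against CONTROL (0.46 ± 0.34, edgeR adjusted p = 0.229). With 25, 32 and 43 counts per line the call was fragile: it was lost with DESeq2 and without SW480 replicate 2, SW480 replicate 3 or APC replicate 1, with adjusted p of up to 0.281 over the alternatives.

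H3 and H4 RNA was scarce in these libraries and also fell. The H3 class summed to 10.7 ± 0.814 (SW480), 8.22 ± 0.695 (CONTROL) and 2.31 ± 0.385 CPM (APC), and the 5 members tested were called lower in both comparisons. HIST1H3D, the most abundant, was measured at 4.85, 4.88 and 5.16 CPM on the 3 SW480 plates, 3.44, 4.12 and 4.21 on the CONTROL plates and 0.220, 0.289 and 0.760 on the APC plates. It lay just under the 5 CPM that marks the members above, its APC libraries lay below the others, and it changed by −3.55 ± 0.25 and −3.21 ± 0.26. Not all of its APC libraries reached the filter level of 0.547 CPM, so HIST1H3D passed the filter through the other lines and no test is given. All 50-base stretches of the GENCODE models of HIST1H3D and of the H4 gene HIST2H4A also occur in other genes, so their counts are uncertain. HIST2H3A and HIST2H3C share identical counts of 31, 38 and 8 per line. The H4 class summed to 11.9 ± 0.420 (SW480), 8.95 ± 0.644 (CONTROL) and 3.29 ± 0.139 CPM (APC), and 6 members tested were called lower against SW480 and 4 against CONTROL. HIST2H4A and HIST2H4B, again with identical counts, were measured at 4.63, 4.72 and 5.10 CPM on the 3 SW480 plates, 3.97, 4.79 and 4.21 on the CONTROL plates and 0.550, 1.10 and 0.760 on the APC plates. They changed by −2.58 ± 0.21 and −2.42 ± 0.21. On CPM scaled by library total alone, APC replicate 1 stood at 0.542 CPM, under the filter level, so no test is given for them either. HIST1H4J and HIST1H4K, with 23 to 60 counts per line, were lower in APC than in SW480 (−0.83 ± 0.33 and −1.06 ± 0.37) but stood at 0.37 ± 0.41 and −0.06 ± 0.43 against CONTROL, where neither was called. Their counts are uncertain too, since 81.2% and 100% of the 50-base stretches of their models also occur in other genes.

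The 26 tested members under 5 CPM in each line had line means of 0.151 to 4.96 CPM. Of these, 24 were called lower against SW480 and 20 against CONTROL, beside 36.9% and 35.4% of all genes. The highest over the 9 libraries were HIST2H4A with its copy, HIST1H3D and HIST2H2AC, and the lowest HIST2H3A with its copy, HIST1H2BN and HIST1H2AJ. HIST1H2BN changed by −1.79 ± 0.51 and −2.07 ± 0.49. Its APC libraries lay under the filter level of 0.547 CPM, so it was tested through the other lines alone and no test is given. HIST1H2AJ changed by −0.94 ± 0.42 and −0.21 ± 0.48 and was called against SW480 only, with 1 APC library at 0.770 CPM among the SW480 values. Other genes hold 83.7% of the 50-base stretches of its model, so its counts are uncertain. HIST1H2BH was called against SW480 (−1.55 ± 0.31) and not against CONTROL (−0.10 ± 0.39), and CONTROL stood at 0.577 ± 0.249 CPM. HIST1H2AJ and HIST1H2BH did not reach the filter level in every APC library either, so their calls carry the same limit. The members not called against CONTROL were thus HIST1H2AJ, HIST1H2BH, HIST1H4J, HIST1H4K, HIST2H2BC and HIST3H2BB.

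The 30 members not tested had at most 11 counts in any library. They were HIST1H1E, HIST1H1B, HIST1H1T of H1, HIST1H2AK, HIST1H2AH, HIST1H2AB, HIST2H2AB of H2A, HIST1H2BL, HIST1H2BF, HIST1H2BE, HIST1H2BM, HIST1H2BI, HIST1H2BB, HIST2H2BA of H2B, HIST1H3B, HIST1H3C, HIST1H3E, HIST1H3A, HIST1H3F, HIST1H3J, HIST1H3I, HIST2H3D, HIST3H3 of H3 and HIST1H4I, HIST1H4E, HIST1H4C, HIST1H4D, HIST1H4A, HIST1H4B, HIST1H4L of H4. Together they held 325, 257 and 155 counts over the 3 libraries of SW480, CONTROL and APC, or 5.82 ± 0.627 (SW480), 4.76 ± 0.563 (CONTROL) and 2.96 ± 0.550 CPM (APC). They were near the limit of counting in all 3 lines. In the edgeR fit with no filter on low counts, 29 of the 30 had an estimate, and 3 were called lower against SW480 (HIST1H3A, HIST1H3C and HIST2H2BA), 2 against CONTROL (HIST1H2BF and HIST2H2BA) and 0 higher in either. HIST2H2BA had 7, 6 and 0 counts over the libraries of SW480, CONTROL and APC.

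Compared per transcript length, on the authors' RPKM, HIST1H2BK led in each line with means of 341, 324 and 32.4 RPKM in SW480, CONTROL and APC. HIST1H1C came next in SW480 and CONTROL, with 285, 192 and 12.9 RPKM. In APC HIST3H2A stood above it, with means of 14.1, 9.84 and 25.2 RPKM in the same order. HIST2H2AA3 had 55.0, 37.6 and 5.37 RPKM, HIST1H2AC 35.1, 25.7 and 2.00 RPKM and HIST1H2BJ 33.4, 30.4 and 2.82 RPKM. The highest H4 gene, HIST2H4A, had 10.9, 9.62 and 1.78 RPKM and HIST1H3D 5.13, 4 and 0.429 RPKM. H3 and H4 were thus measured far below H2B on this scale in each line, at class sums of 16, 27.8 and 439.6 RPKM for H3, H4 and H2B in SW480.

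**Figure D3:**
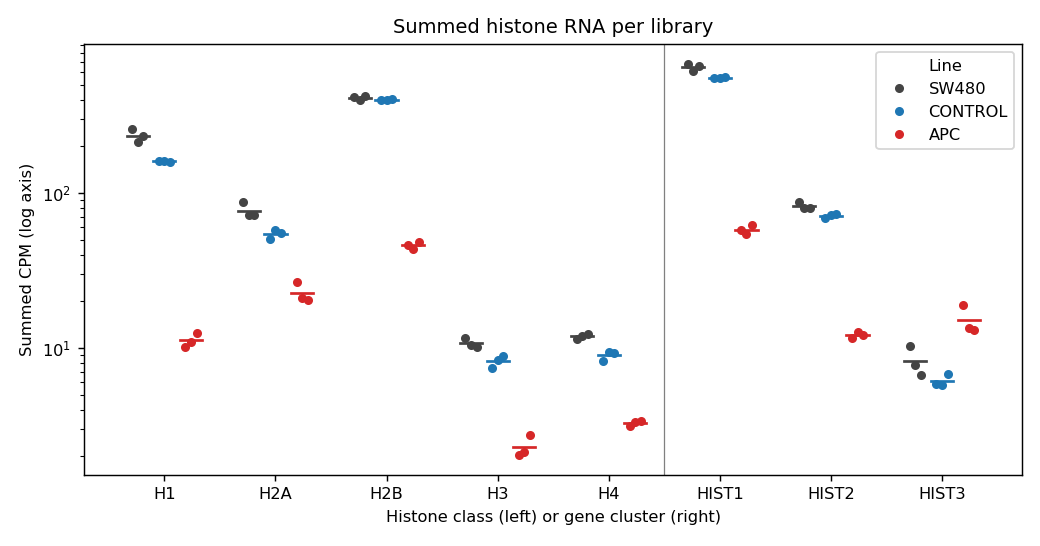
Summed CPM (log axis) of the members of each class and of the 3 larger clusters, 1 point per library with the mean of each line as a bar. APC (red) lies below SW480 (dark) and CONTROL (blue) in each class and in HIST1 and HIST2, and above them in HIST3.

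By cluster, the direction followed HIST1 and HIST2 on one side and HIST3 on the other. HIST1 summed to 652 ± 35.0 (SW480), 553 ± 4.89 (CONTROL) and 58.0 ± 3.60 CPM (APC), and its 23 members tested were called lower against SW480, 19 of them against CONTROL. HIST2 summed to 82.5 ± 4.29 (SW480), 71.2 ± 2.32 (CONTROL) and 12.2 ± 0.537 CPM (APC), with 9 of 10 tested lower in both comparisons. Copies with identical counts enter the 9 of 10 separately but the sum once. HIST3 summed to 8.26 ± 1.83 (SW480), 6.14 ± 0.574 (CONTROL) and 15.1 ± 3.18 CPM (APC), with HIST3H2A and HIST3H2BB as the members tested, neither of which was lower. HIST4H4, the only HIST4 member, was measured at 0.592, 0.750 and 1.02 CPM on the 3 SW480 plates, 0.322, 0.614 and 0.935 on the CONTROL plates and 0.220, 0.463 and 0.234 on the APC plates. It changed by −1.35 ± 0.43 and −1.03 ± 0.46, and APC overlapped CONTROL. Its APC libraries lay under the filter level too, so it was tested through the other lines alone and no test is given.

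HIST1 genes lie in order along chromosome 6 in stretches separated by other genes. Split at the 2 widest gaps in the RefSeq gene order, of 84 and 77 genes that are not members, a split chosen after values were seen, the first stretch held 28 members, the second 5 and the third 16. The 11 tested in the first had a median log2 fold change of −3.52 against SW480 and −3.07 against CONTROL, the 3 in the second −3.36 and −3.31, and the 9 in the third −1.23 and −1.21. Members of the third stretch were also low in abundance, so level and position go together here and cannot be told apart. Between the first and last member RefSeq placed 177 genes that are not members, among them 3 histone genes and 8 histone pseudogenes, none of which was tested. The 18 of the 177 that were tested were all of other kinds: 3 were lower and 9 higher against SW480, 4 lower and 9 higher against CONTROL, with medians of 0.13 and 0.21. Of all genes 36.9% were lower and 35.6% higher against SW480, and 35.4% and 34.8% against CONTROL. The butyrophilin genes BTN3A3 and BTN3A2, which act in the sensing of phosphoantigens by T cells, changed by 2.79 and 2.07 against SW480 and 1.83 and 1.73 against CONTROL. The zinc finger genes ZNF322 and ZNF184 changed by −0.58 and −0.68 against SW480. Both were called lower in each comparison. Across the HIST2 region 34 genes that are not members were tested. Of these, 11 were lower and 8 higher against SW480 and 15 lower and 10 higher against CONTROL, with medians of 0.06 and −0.08. The region was taken from the transcribed pseudogene HIST2H2BA to the last HIST2 member and spanned 276 genes that are not members. Long runs of other genes lie within it, so the 34 need not be close to a histone gene.

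**Figure D4:**
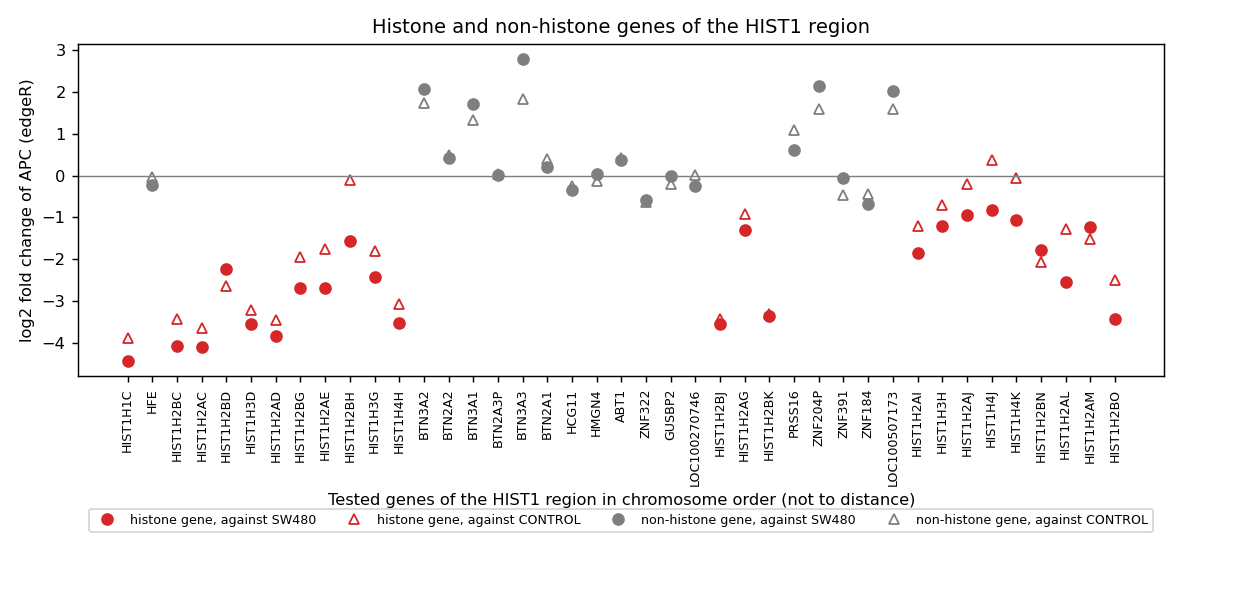
Log2 fold change of each tested gene of the HIST1 region in chromosome order, histone genes in red and other genes in grey, against SW480 (filled circles) and CONTROL (open triangles). Histone genes lie below 0 against SW480, and the other genes run from −0.68 to 2.79.

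Many H2A and H2B genes are arranged head to head and share the DNA between their starts. RefSeq placed 11 pairs of members with starts on opposite strands within 500 bases, 10 of them H2A with H2B, and in 6 pairs both genes were tested. Against SW480, HIST1H2BC and HIST1H2AC changed by −4.09 ± 0.24 and −4.09 ± 0.14, and HIST1H2BG and HIST1H2AE by −2.68 ± 0.32 and −2.68 ± 0.27. HIST3H2A and HIST3H2BB changed by 0.88 ± 0.16 and 0.86 ± 0.36. Against CONTROL the same pairs changed by −3.43 ± 0.26 and −3.65 ± 0.15, by −1.96 ± 0.36 and −1.76 ± 0.32, and by 1.37 ± 0.17 and 0.46 ± 0.34, so the estimates of the HIST3 pair lay close against SW480 only. In the other pairs the partners lay further apart against SW480: HIST1H2BJ and HIST1H2AG changed by −3.54 ± 0.13 and −1.30 ± 0.31, HIST1H2BO and HIST1H2AM by −3.42 ± 0.40 and −1.23 ± 0.38, and HIST2H2BE and HIST2H2AC by −3.03 ± 0.09 and −1.74 ± 0.20. Against CONTROL these were −3.43 ± 0.13 and −0.92 ± 0.33, −2.49 ± 0.47 and −1.53 ± 0.36, and −3.02 ± 0.09 and −1.17 ± 0.22. In each of these 3 pairs the H2B gene had the more negative estimate in both comparisons. The differences within pairs were not tested. Of the 50-base stretches of the GENCODE model of HIST1H2AM, 86.3% also occur in other genes, so its counts are uncertain.

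The vector line set the background for the construct. In CONTROL against SW480, 14 of the 36 members tested were called lower, 1 higher and 21 not called, beside 24.7% lower and 25.3% higher of all genes, 50% in all. The median was −0.44, against −0.01 for all genes. HIST1H1C fell by 0.55 on the log2 scale (SE 0.05, edgeR adjusted p = 1.68e-07), and HIST2H2AA3 and HIST1H2AC changed by −0.53 ± 0.08 and −0.44 ± 0.08. HIST1H2BD was the one called higher (0.42 ± 0.08, edgeR adjusted p = 2.37e-05). HIST1H2BK (−0.05 ± 0.04), HIST2H2BE (−0.02 ± 0.06) and HIST1H2BJ (−0.11 ± 0.08) were not called. HIST3H2A missed the threshold (−0.49 ± 0.19, edgeR adjusted p = 0.0529). CONTROL shares the G418 with APC and the seeding density with SW480. The summed H1, H2A, H3 and H4 levels were lower in CONTROL than in SW480 without overlap of libraries, at 0.684, 0.708, 0.767 and 0.754 of the SW480 mean. H2B stood at 0.974, and its libraries overlapped. The part of seeding density in the difference of APC from both other lines was not tested, since no APC plate was seeded like them.

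A list of 11 members known from other cells to give polyadenylated transcripts, HIST1H1C, HIST1H2AC, HIST1H2BC, HIST1H2BD, HIST1H2BJ, HIST1H2BK, HIST2H2BE, HIST2H2AA3, HIST2H2AA4, HIST1H4H and HIST4H4, held 92.7 to 93.0% of the summed histone CPM in the SW480 libraries, 93.3 to 93.9% in CONTROL and 63.7 to 68.6% in APC, with the HIST2H2AA3 copy taken once. Their summed level was 683 to 761 CPM for SW480, 606 to 619 CPM for CONTROL and 59.1 to 62.8 CPM for APC, values in which the copy is counted too. All 11 were called lower in both comparisons, as were 28% of all genes, with medians of −3.36 and −3.07. HIST1H2BC, HIST1H4H and HIST4H4 lay under the filter level in the APC libraries and were tested through the other lines alone. HIST2H2AA4 repeats the counts of HIST2H2AA3, and HIST4H4 overlapped between APC and CONTROL. The count of 11 therefore describes the list and supports nothing more. Of the other 25 tested, 22 were lower and 2 higher against SW480 and 18 lower and 1 higher against CONTROL, with medians of −1.82 and −1.53. For all genes the shares were 36.9% and 35.6% against SW480 and 35.4% and 34.8% against CONTROL. The list also holds most of the abundant members, so the medians compare level as well as tailing.

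RNAs of other kinds that as a rule lack a poly(A) tail also left reads in these libraries. Summed over all listed genes but the 45S ribosomal RNA precursor, tested or not, they stood at 26.8 to 28.0 CPM for SW480, 25.6 to 28.7 CPM for CONTROL and 40.7 to 41.5 CPM for APC, and 131 of the 279 genes had no count in any library. Of 16 tested, 1 was lower and 9 higher in APC than in SW480, and 0 lower and 9 higher than in CONTROL, with 7 higher in both. The medians were 0.60 and 0.51. These counts and medians support nothing, since 4 of the 16 reached the filter level in all 3 libraries of APC and of no other line. Of the 8 at that level in all 9 libraries, 4 were higher and 0 lower in each comparison. Among all genes 35.6% were higher and 36.9% lower against SW480, and 34.8% and 35.4% against CONTROL, so 8 genes are too few to set apart from these shares. TERC, the RNA of telomerase, was measured at 0.646, 0.161 and 0.376 CPM on the 3 SW480 plates, 0.161, 0.369 and 0.156 on the CONTROL plates and 1.76, 2.14 and 1.87 on the APC plates. Its APC libraries lay above the others, of which 5 of 6 were under the filter level, so it was tested only because APC is high and no test is given. The precursor itself, RNA45S5, stood at 29484 ± 4295 (SW480), 24073 ± 192 (CONTROL) and 29160.4 ± 2279 CPM (APC). Apart from the precursor, the summed untailed RNA was therefore higher in APC, opposite in direction to the histone members that fell. Its part in any of the histone differences was not tested.

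Genes whose products transcribe and process histone mRNA changed little. Of 30 tested, 7 were lower and 14 higher against SW480 and 5 lower and 8 higher against CONTROL, of which 2 were lower and 7 higher in both. Over all genes the shares were 36.9% lower and 35.6% higher against SW480, and 35.4% and 34.8% against CONTROL. No gene of the 30 differed over 2-fold. SLBP, which binds the stem-loop, was measured at 124, 115 and 125 CPM on the 3 SW480 plates, 133, 132 and 131 on the CONTROL plates and 129, 135 and 133 on the APC plates, and changed by 0.13 ± 0.04 (edgeR adjusted p = 0.00583) and 0.00 ± 0.04 (edgeR adjusted p = 0.941). NPAT, the cyclin E-CDK2 substrate that activates histone genes, changed by −0.23 ± 0.06 and 0.02 ± 0.06, and CASP8AP2, which encodes the processing factor FLASH, by −0.23 ± 0.06 and −0.07 ± 0.06. For both, CONTROL was lower than SW480 as well (−0.25 ± 0.06 and −0.15 ± 0.06). With the smallest adjusted p among genes called alike against SW480 and CONTROL, SNRPD3 (0.48 ± 0.04 and 0.41 ± 0.04), UPF1, which takes part in the decay of histone mRNA at the end of S phase (0.39 ± 0.04 and 0.40 ± 0.04), and CSTF1 (0.26 ± 0.05 and 0.41 ± 0.05) were higher. NCBP2 (−0.13 ± 0.04 and −0.25 ± 0.04) and CPSF3 (−0.18 ± 0.04 and −0.13 ± 0.04), the endonuclease of the cleavage complex, were lower.

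S phase genes did not move together. Of 32 tested, 13 were lower and 12 higher against SW480 and 12 lower and 15 higher against CONTROL, and the medians were −0.02 and 0.02. Of all genes 36.9% were lower and 35.6% higher against SW480, and 35.4% and 34.8% against CONTROL. Their summed level was 6188 to 6503 CPM for SW480, 6422 to 6512 CPM for CONTROL and 6451 to 6550.2 CPM for APC, and the ranges overlapped. CCNE2, a cyclin E gene, fell (−0.76 ± 0.07 and −0.75 ± 0.07), as did its kinase CDK2 (−0.50 ± 0.04 and −0.78 ± 0.04) and the thymidylate synthase gene TYMS (−0.28 ± 0.04 and −0.50 ± 0.04). TK1, thymidine kinase, rose (0.93 ± 0.04 and 0.88 ± 0.04), as did CCNA2 (0.41 ± 0.04 and 0.40 ± 0.04) and RFC3, a clamp loader subunit (0.48 ± 0.04 and 0.65 ± 0.05). No gene of this list changed over 2-fold in either comparison.

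Replication-independent histone variants, whose messages are polyadenylated as a rule and made throughout the cycle, had a summed level whose SW480 and APC ranges overlapped. It was 2866 to 3075 CPM for SW480, 2708 to 2753 CPM for CONTROL and 2953 to 3048 CPM for APC. Of 12 tested, 1 was lower and 2 higher against SW480 and 1 lower and 6 higher against CONTROL. H2AFV, an H2A.Z gene, fell (−0.37 ± 0.04 and −0.48 ± 0.04), and H2AFJ (0.42 ± 0.06 and 0.73 ± 0.06) and H3F3B, an H3.3 gene (0.29 ± 0.04 and 0.24 ± 0.04), rose in both. H2AFZ was not called in either comparison (0.04 ± 0.04 and −0.04 ± 0.04). H2AFX, which gives both a stem-loop and a polyadenylated message, was not called either (−0.30 ± 0.14 and 0.14 ± 0.15, edgeR adjusted p = 0.108 and 0.435), and its SW480 libraries spread from 282 to 396 CPM. H1F0, the linker histone of resting cells, changed by −0.07 ± 0.04 and 0.22 ± 0.04 and was called higher against CONTROL. Of 17 histone chaperone genes tested, 5 were lower and 5 higher against SW480 and 5 lower and 4 higher against CONTROL. HJURP (−0.28 ± 0.04 and −0.47 ± 0.04), the chaperone of CENP-A, fell, and NAP1L1 (0.40 ± 0.04 and 0.27 ± 0.04) and SSRP1 (0.20 ± 0.04 and 0.10 ± 0.04), a subunit of FACT, rose in both. The lists were made from textbook knowledge, and the counts stand beside the shares of all genes given above.

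**Figure D5:**
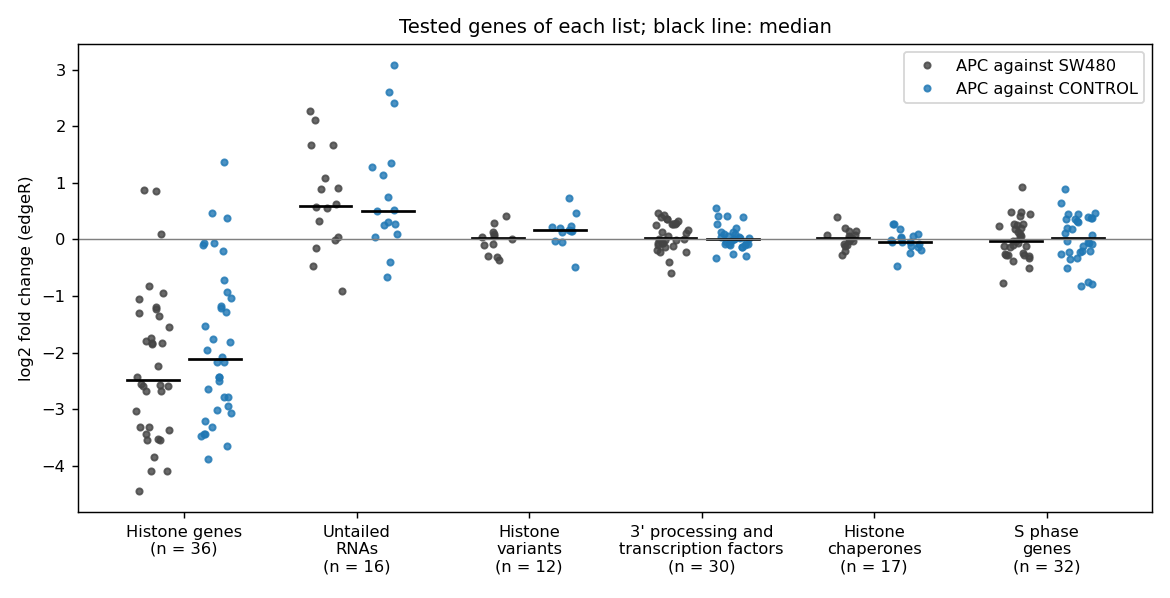
Log2 fold change of each tested gene of the histone members and 5 other lists, 1 point per gene, against SW480 (dark) and CONTROL (blue), with the median of each list as a black line. The histone members have medians of −2.49 and −2.11, the untailed RNAs 0.60 and 0.51, and the other lists lie near 0.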

How the data were processed

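RNA was sequenced from 9 plates, 3 per line. The deposited counts are whole numbers of reads per RefSeq transcript with no normalization, per the file headers and their values. The authors derived the deposited RPKM values from these counts, since every RPKM is a count over the transcript length times a factor fixed for its library (100% of transcripts, relative tolerance 0.0001). The submitters' processing notes name hg19 as the build and, without versions, the tools Trimmomatic, TopHat and GATK. The counting tool, its annotation and its use of strand were not given in the sources used here. Reads of near-identical histone genes or overlapping transcripts may be counted more than once or dropped, so such members are uncertain. Of 65 transcripts whose gene name had turned into a date, 62 got their name back by accession.

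One transcript per gene, the one with the highest total count, entered edgeR 4.0.16 (R 4.3.3): TMM, filterByExpr, and a robust quasi-likelihood fit of all 9 libraries with group means alone. Benjamini-Hochberg adjustment ran over the p-values of 14255 genes. The biological coefficient of variation was 3.56%. A log2 fold change over the root of its F statistic gave the SE. Members and gene lists were chosen with earlier results of these data known. Members with a mean of at least 5 CPM in a line are given library by library, and the rest by range. From each list up to 3 genes per direction called alike in both APC comparisons are named, plus a few fixed genes. Other members and the BTN and ZNF genes were named after their values were seen. As alternatives, DESeq2 1.42.0, RLE size factors, no count filter, counts summed over a gene's transcripts, limma 3.58.1 on log2 RPKM (pseudocount 1 and 0.1), fits restricted to 6 libraries, the replicate number as block, tests against a 2-fold change and omission of single libraries were run. The fit was tested on simulated data. GENCODE and RefSeq sequences are of GRCh38, which is not the build of the counts, and served for sequence and gene order only. With 3 libraries against 3, an exact permutation test cannot give a two-sided p under 0.1.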

Additional observations from a re-analysis of the deposited data

How the results depend on the processing

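No member called in the APC comparisons changed direction under any alternative, and HIST3H2A was called higher in each except the test against a minimum fold of 2. The number called higher against SW480 was 1 with DESeq2 and 0 with a minimum fold of 2, and 1 to 2 when a library was left out, where HIST3H2BB was the one lost; against CONTROL it was 0 with the minimum fold. For CONTROL against SW480 the minimum fold left 0 lower and 0 higher, and leaving out a library gave 1 to 2 higher, the second call coming without CONTROL replicate 1. The number called lower, leaving out a library, was 30 to 33 against SW480, 25 to 29 against CONTROL and 12 to 16 for CONTROL against SW480. The median log2 fold changes of the members tested against SW480 and CONTROL moved to −1.73 and −1.17 with no filter on low counts, −1.05 and −0.89 for limma on log2(RPKM + 1), −1.91 and −1.69 for limma on log2(RPKM + 0.1), and −3.17 and −2.79 over the 12 members at the filter level in all APC libraries, an alternative chosen after seeing the data. The mean summed CPM was 791, 674 and 92.4 in SW480, CONTROL and APC with counts summed over transcripts, 423, 322 and 54.5 without HIST1H2BK, and 189.9, 163 and 43.7 without it and HIST1H1C, also chosen after seeing the data. Replicate numbers did not pair the plates: deviations of same-numbered plates correlated at −0.09 to 0.16 over 9 pairs and others at −0.12 to 0.10 over 18. With the replicate block 33 members were lower and 2 higher against SW480, 29 and 1 against CONTROL, and no call of a member changed in these comparisons. Depth limits the low members most: HIST2H3A, HIST1H2BO and HIST1H2AD, for example, had 8, 8 and 9 counts in all 3 APC libraries together.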
